A study of Mus musculus with 6 samples.

Results

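Apoptosis removes a large share of developing germ cells from the normal testis, and the genes described here are those that hold this death in check, trigger it or carry it out. They are 35 named regulators and executioners: the pro-death and pro-survival genes of the BCL2 family, the inhibitor of apoptosis proteins (IAPs) and their antagonist, the caspases with their activating scaffold, the death receptors with their adaptors, and the cytochromes c. Members were all probe sets whose platform gene symbol is exactly one of these names. On this array several short probes against a stretch of transcript are read together as a probe set, and a gene can have more than 1 probe set. By this rule 33 of the 35 genes had a probe set, out of 18193 genes named by a single-gene probe set, and together they had 86 probe sets. Bax and Ripk1 were matched by no probe set under this rule and were not analysed here.

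Whole testes came from 12 week old mice, 3 with the genotype Alkbh1-/- (KO) and 3 wild type (WT) on a C57/BL6 background, a strain that the genotype field spells C53/BL6 for all 6 mice. Alkbh1 encodes a dioxygenase of the AlkB family. Each mouse gave 1 Affymetrix expression array of normalized log2 values. The sources used here do not give which part of Alkbh1 was deleted, whether it was deleted in every cell, or whether KO and WT mice were littermates. A whole testis mixes germ cells of every stage with Sertoli, Leydig and other somatic cells, so fewer cells of a type and less RNA per cell cannot be told apart.

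In the intrinsic pathway, cell stress is read by BH3-only proteins, which bind the pro-survival BCL2 proteins or act on the effectors BAX, BAK and BOK directly. The effectors open the outer mitochondrial membrane, cytochrome c leaks out and joins APAF1 in the apoptosome, and this scaffold activates caspase-9 and, through it, the executioner caspases. In the extrinsic pathway, ligands such as FASL bind death receptors, which gather FADD and caspase-8. In the testis, Sertoli cells and germ cells are known to use both routes to match germ cell number to the support available.

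No apoptosis gene passed the test for a difference between KO and WT. Of the 86 probe sets, 60 of 31 genes passed the filter on low values (mean log2 of at least 6.02 over the 6 arrays) and were tested, and 0 of the 60 had a limma adjusted p under 0.05, where p-values were adjusted by Benjamini-Hochberg over all 27022 tested probe sets. Over all of these, 0.0407% were called (11 probe sets). At an unadjusted p under 0.05 there were 3 member probe sets, which is 5% of 60, against 5.11% of all tested probe sets. All 3 were lower in KO, a direction with an unadjusted p under 0.05 at 1.78% of all tested probe sets. They were 2 probe sets of Bik, a BH3-only gene, and 1 of Birc3, which encodes an inhibitor of apoptosis, so that they stand for 2 genes. The count of 0 was the same under the 15 alternative settings tried, with a lowest member adjusted p between 0.132 and 1.00.

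The intervals were narrow enough to limit the size of a change in whole testis signal at the tested probe sets. They do not limit a change within 1 type of cell, or a change in RNA where a probe set reads mostly background. No detection calls were used, and 19 of the 60 tested probe sets had a mean under 7 log2. The 95% limma interval of the KO minus WT difference lay within 1 log2 (a change of 2-fold) on either side of 0 at 60 of 60 tested probe sets, and within 0.5 log2 at 58. The exceptions at 0.5 were Bik and Pmaip1, both BH3-only genes. The median standard error was 0.08 log2 among members and 0.08 log2 among all tested probe sets. Differences were under 0.2 log2 in size at 95% of the member probe sets and at 93.2% of all tested probe sets. These intervals are for each probe set alone and are not adjusted for their number.

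**Figure D1:**
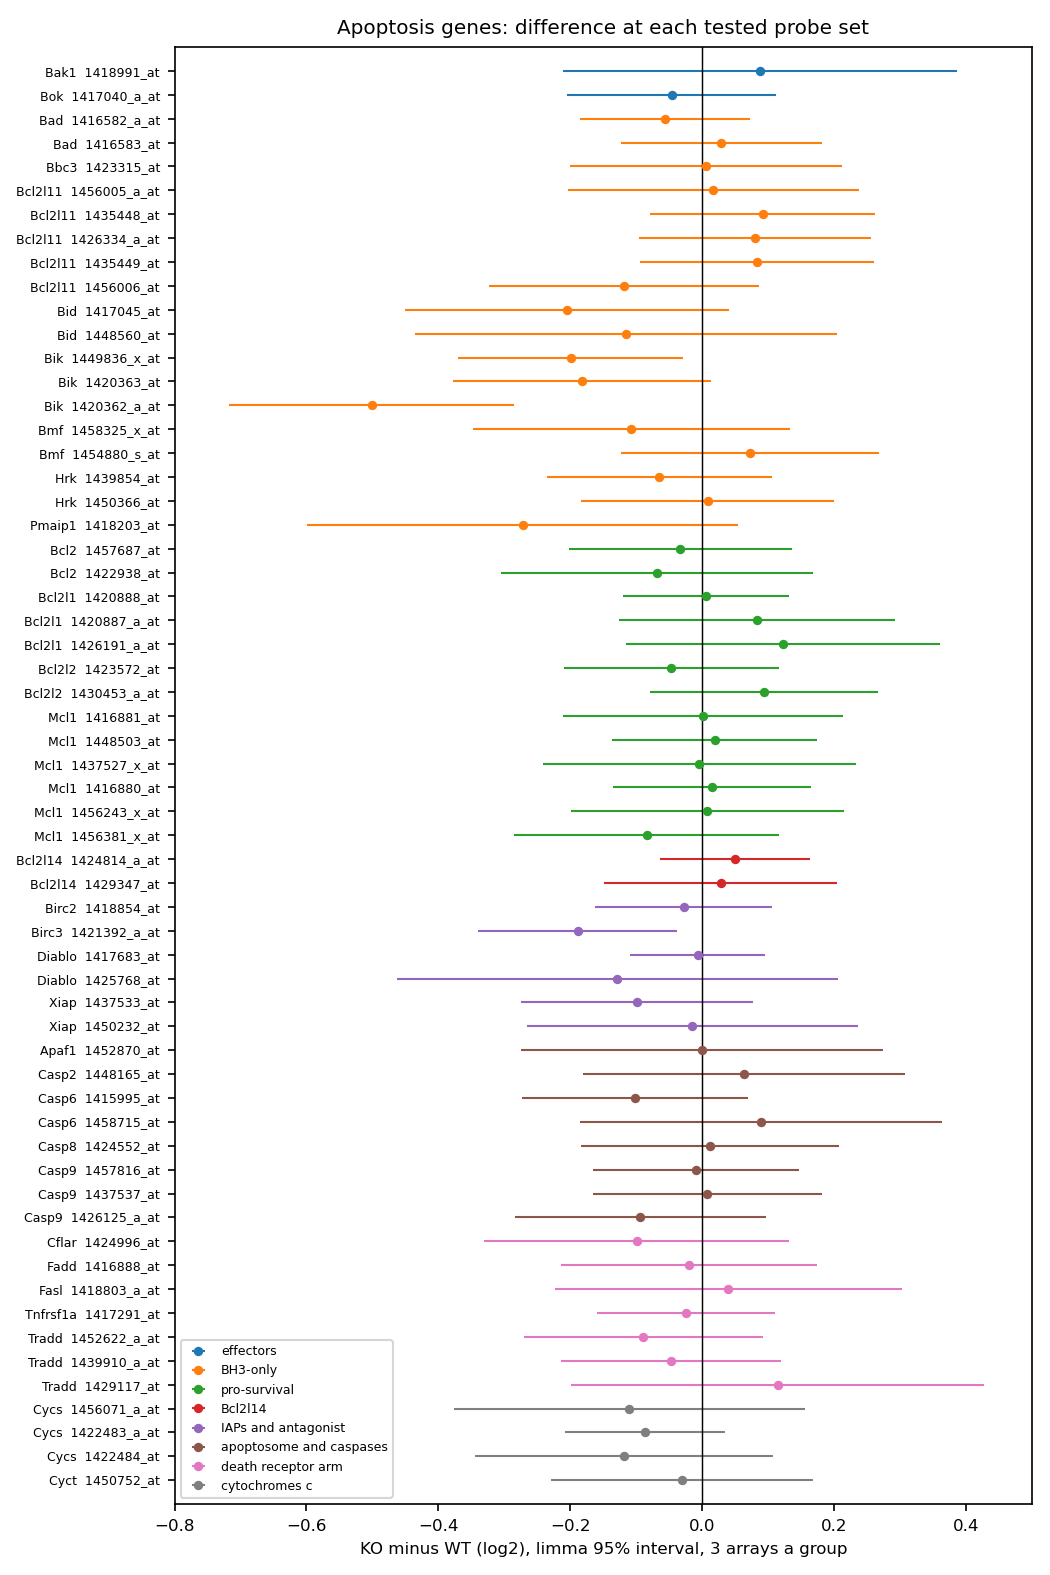
KO minus WT difference in log2 (horizontal axis) at each of the 60 tested probe sets of the apoptosis genes, coloured by class, with the limma 95% interval as a bar (3 arrays in each group). Most intervals cross 0, and the exceptions are 2 probe sets of Bik and 1 of Birc3, all on the side of lower values in KO.

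A few facts of the whole series bear on these values. Alkbh1 itself was lower in KO at the first of its 2 probe sets, 1434660_at (mean ± SD of 8.60 ± 0.15 over 3 WT arrays and 5.42 ± 0.30 over 3 KO arrays, limma adjusted p = 0.000582). Its other probe set, 1438681_at, differed by −1.02 ± 0.12 (SE) and was not called (limma adjusted p = 0.0697). WT replicates 1 and 2 stood at opposite ends of the first principal component (−24.36 and 21.03), with the other arrays between −6.85 and 6.87. They also had the lowest and highest mean of the control RNAs spiked in before labelling (6.69 and 9.41, against 7.59 to 8.10 on the others). Defining markers of testis cells were measured, with 7 of 7 spermatogonial, 6 of 7 pachytene, 12 of 12 spermatid and 8 of 8 Sertoli genes passing the filter. Of these, 5 spermatogonial, 1 pachytene, 0 spermatid and 6 Sertoli genes were lower in KO, each at its tested probe set with the highest mean. None was called, and their median differences ran from −0.04 (Sertoli) to 0.06 (round spermatids). Markers of fat were uneven between testes. Their summed linear level over 3 genes ran from 399 to 732 in WT and from 495 to 1337 in KO. Lymphocyte (394 to 436 in WT, 399 to 434 in KO, 5 genes) and macrophage sums (1547 to 1788 and 1569 to 1921, 6 genes) overlapped. The part of these in the differences below was not tested.

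The effectors are the pore formers of the pathway. Bak1, which encodes BAK, read 7.18, 6.70 and 6.90 log2 on the WT arrays of replicates 1, 2 and 3 and 6.88, 7.13 and 7.03 on the KO arrays in the same order. The WT values span all 3 KO values, and the difference was 0.09 ± 0.13 (SE; limma adjusted p = 0.993, 95% interval from −0.21 to 0.39). Bok, the effector least dependent on BH3-only signals, read 8.14, 8.22 and 8.12 in WT and 8.17, 8.14 and 8.03 in KO, a difference of −0.05 ± 0.07. The groups overlapped in both genes. The other probe set of Bak1, 1425716_s_at, lay under the filter at a mean of 4.51.

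The BH3-only genes held the largest differences of all classes. These genes sense stress, DNA damage, loss of growth factors or detachment and tip the balance toward death. Of the 8 genes 6 were lower and 2 higher in KO, each gene taken at its tested probe set with the highest mean, and the median difference was −0.09 log2, against 0.01 over all 13897 genes tested. With each gene taken as the mean of its tested probe sets the class median was −0.02. By array, the mean deviation of the 8 genes from the mean of all arrays was 0.13, 0.02 and 0.01 in WT and −0.03, −0.01 and −0.13 in KO. WT replicate 1 and KO replicate 3 stood farthest apart, and the other arrays lay close to each other on either side of 0. These are descriptions of the class, with no test.

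Bik, an inducer of death that acts from the endoplasmic reticulum and mitochondria, was lower in KO at all 3 of its probe sets. The probe set 1420362_a_at read 7.69, 7.78 and 7.54 in WT and 7.21, 7.04 and 7.26 in KO. Every KO value lay below every WT value, with a gap of about the size of the spread within a genotype. The difference was −0.50 ± 0.09, or 1.42-fold lower, and was not called (limma adjusted p = 0.413). The second, 1449836_x_at, read 8.45, 8.40 and 8.24 in WT and 8.19, 8.15 and 8.15 in KO, where WT replicate 3 came close to the KO arrays (−0.20 ± 0.07, limma adjusted p = 0.918). The third, 1420363_at, read 7.73, 7.69 and 7.77 in WT and 7.65, 7.39 and 7.61 in KO, where KO replicate 2 was the lowest array and the other KO arrays came close to WT (−0.18 ± 0.08, limma adjusted p = 0.986).

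The 3 Bik probe sets thus shared a direction but differed in size. They read the same gene on the same arrays and are not independent measurements of the mice. The suffix x_at marks probes that may also bind other transcripts. The difference at 1420362_a_at ran from −0.57 to −0.37 over the 12 alternatives in which it was fitted anew, some of which leave it as it was, with an adjusted p between 0.327 and 1.00. It kept its sign under each of them, as did the other 2. Among the member probe sets tested, 4 had no overlap with KO below WT (6.67%, against 3.84% of all tested probe sets), and 3 of these 4 were Bik. None had KO above WT (0%, against 7.12% of all tested probe sets). Together, 11% of all tested probe sets had no overlap in either direction.

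**Figure D2:**
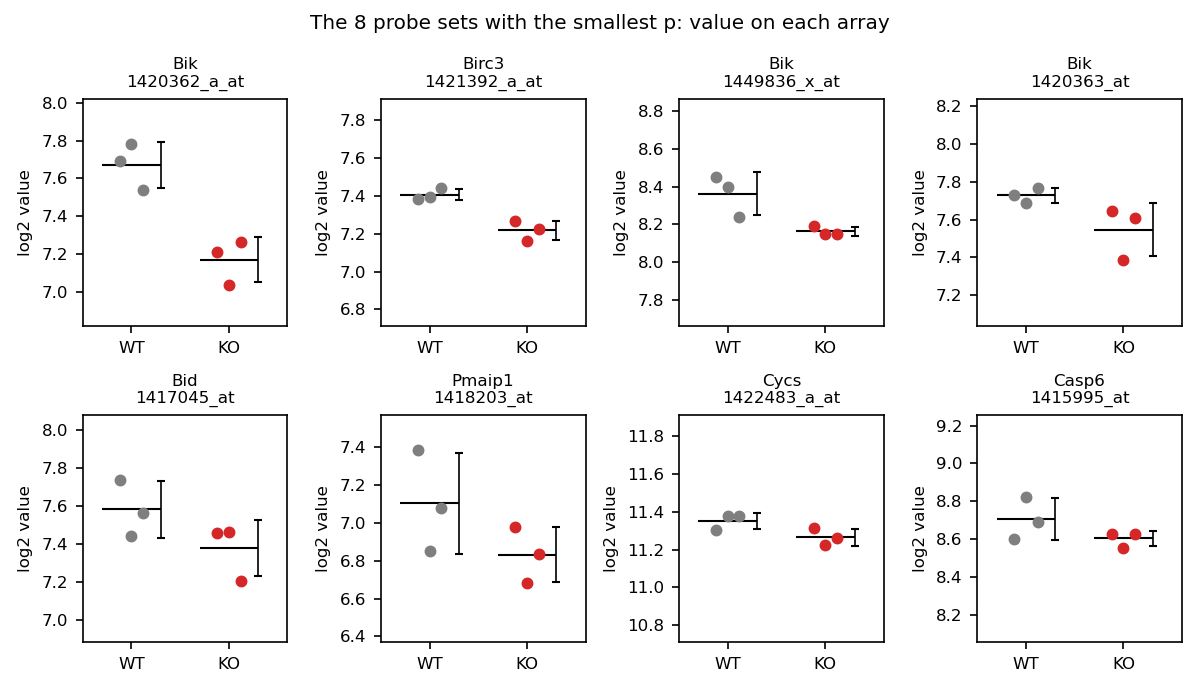
Normalized log2 value on each array for the 8 apoptosis probe sets with the smallest unadjusted p (WT grey, KO red, 3 mice each; line, mean; bar, SD). Every panel spans 1.2 log2. KO lies below WT without overlap in the 3 panels of Bik and in that of Birc3, while the groups overlap for Bid, Pmaip1, Cycs and Casp6.

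Pmaip1, which encodes the p53-induced NOXA, had the next largest difference. It read 7.38, 6.85 and 7.08 in WT and 6.98, 6.68 and 6.84 in KO (−0.27 ± 0.14, limma adjusted p = 0.993). WT replicate 1 was the highest array, and WT replicate 2 lay within the KO range. Bid, whose protein links death receptors to mitochondria after caspase-8 cuts it, read 7.74, 7.44 and 7.56 in WT and 7.46, 7.46 and 7.21 in KO at 1417045_at (−0.21 ± 0.11, limma adjusted p = 0.993). Here WT replicate 2 lay inside the KO range and KO replicate 3 below all others. The second tested Bid probe set differed by −0.12 ± 0.14. Bid and Pmaip1 kept their sign under every alternative in which they had a value.

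The other BH3-only genes lay close to 0 or disagreed between probe sets. Bbc3, which encodes the p53 target PUMA, differed by 0.01 ± 0.09 (95% interval from −0.20 to 0.21). Bad, whose protein is silenced by growth factor signalling, differed by −0.06 and 0.03 at its 2 probe sets. Bcl2l11, which encodes BIM, had 5 tested probe sets with differences from −0.12 to 0.09, of which 4 were higher and 1 lower in KO. Hrk (−0.06 and 0.01), a gene best known from neurons, and Bmf (−0.11 and 0.07), whose protein is tied to the cytoskeleton, were likewise split. None of these passed, with limma adjusted p of 0.993 or more. The lowest differences of this class were thus those of Bik, Pmaip1 and Bid, and at the other 5 genes no probe set differed by more than 0.12 in size.

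The pro-survival BCL2 genes, which hold the effectors and BH3-only proteins in check, were close to equal in KO and WT. The class was evenly split, with 2 genes lower and 2 higher in KO and a median of −0.02. Mcl1, which encodes a short-lived guardian protein, had 6 tested probe sets with differences from −0.08 to 0.02. Its probe set 1416881_at read 10.82, 11.11 and 11.16 in WT and 10.98, 11.09 and 11.02 in KO, so that WT replicate 1 was the lowest array and the KO arrays lay between it and the other WT arrays. The difference of 0.00 ± 0.09 became −0.10 without WT replicate 1 (limma adjusted p = 0.503). All 6 Mcl1 probe sets were lowest on WT replicate 1, and they share the gene.

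Bcl2l1, which encodes BCL-XL, the survival factor of spermatogonia and other germ cells, read 10.38, 10.46 and 10.37 in WT and 10.40, 10.44 and 10.39 in KO at 1420888_at. These 6 values lay within 0.1 log2 of each other, and the difference was 0.01 ± 0.05 (95% interval from −0.12 to 0.13). Its other 2 tested probe sets differed by 0.08 and 0.12, with overlapping groups. Bcl2l2, which encodes BCL-W and is required for spermatogenesis in the adult, read 8.43, 8.63 and 8.51 in WT and 8.45, 8.47 and 8.51 in KO at 1423572_at (−0.05 ± 0.07). Its other tested probe set stood at 0.09 ± 0.07. Bcl2, the founding member of the family, differed by −0.03 and −0.07 at 2 tested probe sets, while 3 more lay under the filter. The median of this class moved from −0.02 to −0.08 without WT replicate 1.

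Bcl2l14 encodes BCL-G, a BCL2 relative whose part in cell death is less settled, and was kept apart. Its probe set 1424814_a_at read 12.82, 12.77 and 12.86 in WT and 12.93, 12.84 and 12.83 in KO, high on the scale of the array and with overlapping groups (0.05 ± 0.05, limma adjusted p = 0.993). The second probe set differed by 0.03 ± 0.08. The gene lies on chromosome 6, as do Bid, Casp2, Cycs and Tnfrsf1a. None of the tested probe sets of these 5 genes was called.

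The IAPs block caspases or tag signalling proteins with ubiquitin, and Diablo encodes SMAC, the mitochondrial protein that relieves this block. All 4 genes were lower in KO at the probe set with the highest mean, with a median of −0.06 and no test. Of all genes tested, 44.1% were lower. By array the groups overlapped, as the mean deviation of WT replicate 1 (−0.008) lay below that of KO replicate 1 (−0.004). Birc3, which encodes the ubiquitin ligase cIAP2, read 7.39, 7.39 and 7.44 in WT and 7.27, 7.16 and 7.23 in KO at 1421392_a_at. The WT arrays lay within 0.06 of each other and above all KO arrays. The difference was −0.19 ± 0.06, or 1.14-fold lower, and was not called (limma adjusted p = 0.890, 95% interval from −0.34 to −0.04). It ran from −0.22 to −0.16 over 11 alternatives. The second Birc3 probe set, 1425223_at, lay under the filter at a mean of 4.77 and differed by −0.02.

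Birc2, the neighbouring gene on chromosome 9 and the source of the closely related cIAP1, read 11.25, 11.34 and 11.31 in WT and 11.36, 11.22 and 11.24 in KO, with overlapping groups (−0.03 ± 0.06, 95% interval from −0.16 to 0.11). Whether Birc3 and Birc2 differed in their response was not tested. The sequences around their start sites are shown because the pair encodes related proteins from neighbouring genes and the starts are unlike each other. Each window runs from 250 bases before to 50 bases after the start, in RefSeq on GRCm38.p6. Capitals mark the cyclic AMP response element TGACGTCA, the motif bound by CREB and CREM, or the core GCATGCGC of the NRF1 motif. Both were searched on both strands and do not overlap each other here. Birc2 lies at chr9:7837008-7837307 and Birc3 at chr9:7873121-7873420, both on the minus strand.
Birc2: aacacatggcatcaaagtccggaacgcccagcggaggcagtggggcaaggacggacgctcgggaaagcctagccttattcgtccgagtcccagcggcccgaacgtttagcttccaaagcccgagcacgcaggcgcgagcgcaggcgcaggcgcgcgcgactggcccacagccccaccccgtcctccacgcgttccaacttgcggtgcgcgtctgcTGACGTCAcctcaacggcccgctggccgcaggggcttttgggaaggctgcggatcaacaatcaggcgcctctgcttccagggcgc
Birc3: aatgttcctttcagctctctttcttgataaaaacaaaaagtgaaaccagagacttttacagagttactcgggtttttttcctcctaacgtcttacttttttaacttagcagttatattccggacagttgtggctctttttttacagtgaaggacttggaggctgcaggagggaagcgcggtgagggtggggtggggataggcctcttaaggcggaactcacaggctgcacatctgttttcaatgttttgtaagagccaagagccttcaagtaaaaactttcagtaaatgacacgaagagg
The Birc2 window holds a cyclic AMP response element starting 35 bases before the start and 34 CG pairs. Birc3 holds neither motif and 7 CG pairs, which is the median over all 32851 windows (7). The response element is in 1.79% of these windows and the NRF1 core in 2.71%. A match is a description of the letters and does not show binding. Bik and Pmaip1 had no match among the RefSeq windows used here, so no sequence of theirs is shown.

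Xiap encodes the IAP that inhibits caspases directly and lies on the X chromosome. Its probe set 1437533_at read 8.15, 8.28 and 8.32 in WT and 8.20, 8.05 and 8.19 in KO (−0.10 ± 0.08, limma adjusted p = 0.993), where WT replicate 1 lay inside the KO range. The other tested probe set differed by −0.01 ± 0.11. Of 5 Xiap probe sets under the filter, 1456088_at was named after its values were seen. It read 5.50, 5.39 and 5.42 in WT and 5.16, 5.18 and 5.13 in KO, without overlap, a difference of −0.28. When all 45037 probe sets were tested without the filter it was not called (limma adjusted p = 0.936). The probe sets of Xiap therefore disagreed in size. Diablo read 12.74, 12.80 and 12.76 in WT and 12.72, 12.78 and 12.77 in KO at 1417683_at (−0.01 ± 0.04, 95% interval from −0.11 to 0.10). Its probe set 1425768_at differed by −0.13 ± 0.14, with WT replicate 2 (8.69) above the other 5 arrays, which read 8.09 to 8.32.

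The apoptosome scaffold and the caspases were close to equal in KO and WT. Apaf1, the scaffold that cytochrome c activates, read 6.68, 6.31 and 6.73 in WT and 6.62, 6.61 and 6.49 in KO at 1452870_at. The KO values lay between the lowest and highest WT values (0.00 ± 0.12, 95% interval from −0.27 to 0.27). Casp9, which encodes the initiator that the apoptosome activates, read 7.46, 7.33 and 7.39 in WT and 7.36, 7.42 and 7.36 in KO at 1457816_at, and its 3 probe sets differed by −0.01, 0.01 and −0.09. Casp2, an initiator linked to DNA damage, read 8.26, 7.92 and 7.97 in WT and 8.16, 8.19 and 7.99 in KO (0.06 ± 0.11).

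Casp8 encodes the initiator of the death receptors. It read 6.92, 6.84 and 6.90 in WT and 6.83, 7.05 and 6.81 in KO, a difference of 0.01 ± 0.08 with KO replicate 2 the highest array. Casp6, the only executioner caspase among the members, read 8.60, 8.82 and 8.69 in WT and 8.63, 8.55 and 8.63 in KO at 1415995_at. WT replicate 1 lay inside the KO range (−0.10 ± 0.07, limma adjusted p = 0.993). The other Casp6 probe set went the other way (0.09 ± 0.12). Casp12, a caspase tied to the endoplasmic reticulum and to inflammation, lay under the filter at both probe sets (means of 5.50 and 4.10) and was not tested. Its differences were 0.19 and −0.12. Over the 5 tested genes of this class 3 were lower and 2 higher in KO, with a median of 0.00.

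None of the tested genes of the death receptor arm was called. Fas, the receptor carried by germ cells, lay under the filter on its only probe set and was not tested. It read 5.43, 5.36 and 5.28 in WT and 5.46, 5.57 and 5.39 in KO, with overlapping groups and a difference of 0.12. Fasl, its ligand, read 6.21, 5.96 and 5.99 in WT and 6.29, 6.03 and 5.95 in KO at 1418803_a_at (0.04 ± 0.11), just above the filter. Replicate 1 was the highest array in both genotypes. Tnfrsf1a, the main receptor for tumour necrosis factor, read 9.63, 9.63 and 9.64 in WT and 9.68, 9.57 and 9.58 in KO (−0.03 ± 0.06, 95% interval from −0.16 to 0.11).

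The adaptors carry the receptor signal inward. Fadd, which bridges FAS and caspase-8, differed by −0.02 ± 0.08. Tradd, the adaptor of the tumour necrosis factor receptor, differed by −0.09, −0.05 and 0.11 at its 3 probe sets. Cflar encodes FLIP, which blocks caspase-8 at the receptor. Its tested probe set read 6.84, 6.55 and 6.77 in WT and 6.69, 6.67 and 6.50 in KO (−0.10 ± 0.10, limma adjusted p = 0.993), and the 4 others lay under the filter. Of the 5 tested genes of this arm 4 were lower and 1 higher in KO, with a median of −0.03.

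Cytochrome c exists in 2 forms in the testis. Cycs encodes the form of somatic cells and early germ cells, and Cyct the form that germ cells make from meiosis on and that sperm carry. The sequences around their start sites are shown because these separate genes encode the 2 forms and their starts are unlike each other. Cycs lies at chr6:50566520-50566819 and Cyct at chr2:76360404-76360703, both on the minus strand of GRCm38.p6 in RefSeq, with capitals as above.
Cycs: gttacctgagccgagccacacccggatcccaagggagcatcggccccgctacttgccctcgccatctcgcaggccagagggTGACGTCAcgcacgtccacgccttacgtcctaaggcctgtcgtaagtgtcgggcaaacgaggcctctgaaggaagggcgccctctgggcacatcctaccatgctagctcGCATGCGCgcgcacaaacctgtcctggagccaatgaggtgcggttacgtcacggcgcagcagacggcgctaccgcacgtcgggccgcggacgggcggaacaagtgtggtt
Cyct: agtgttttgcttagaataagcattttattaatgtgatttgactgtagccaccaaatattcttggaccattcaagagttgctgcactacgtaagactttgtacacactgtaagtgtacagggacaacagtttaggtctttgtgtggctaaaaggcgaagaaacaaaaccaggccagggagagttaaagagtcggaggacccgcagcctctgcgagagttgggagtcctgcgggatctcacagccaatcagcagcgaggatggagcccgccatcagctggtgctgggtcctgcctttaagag
The Cycs window holds a cyclic AMP response element starting 169 bases and an NRF1 core starting 60 bases before the start, with 32 CG pairs and a GC content of 65%. The Cyct window holds neither motif, with 8 CG pairs and a GC content of 48.3%. That these letters are missing from the Cyct window says nothing about which factors act there.

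Neither cytochrome gene was called. Cycs read 11.78, 12.25 and 12.12 in WT and 11.90, 11.89 and 12.04 in KO at 1456071_a_at (−0.11 ± 0.11, limma adjusted p = 0.993). WT replicate 1 was the lowest array and the other WT arrays were the highest. The same held at 1422484_at (10.12, 10.51 and 10.35 in WT, 10.20, 10.16 and 10.27 in KO, −0.12 ± 0.10). At 1422483_a_at Cycs read 11.30, 11.38 and 11.38 in WT and 11.31, 11.22 and 11.26 in KO (−0.09 ± 0.05). Cyct read 11.74, 12.05 and 12.00 in WT and 11.82, 11.92 and 11.96 in KO (−0.03 ± 0.09, 95% interval from −0.23 to 0.17). WT replicate 1 was again lowest, and the KO arrays lay between it and the other WT arrays. The median of both genes, −0.07, was −0.18 without WT replicate 1 and 0.01 without WT replicate 2. Levels of Cycs and Cyct come from different probes and were not compared with each other.

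**Figure D3:**
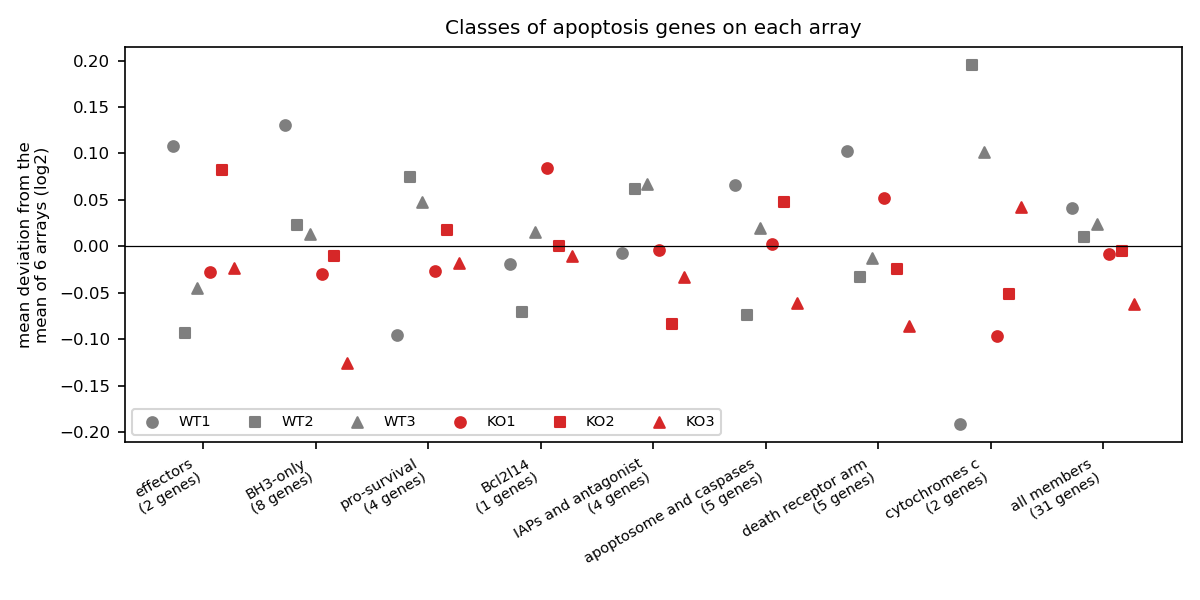
Mean deviation in log2 of each class of apoptosis genes from the mean of all 6 arrays (vertical axis), for each WT (grey) and KO (red) array, with 1 tested probe set per gene and the number of genes under each class. WT and KO arrays are mixed in most classes, and WT replicate 1 is lowest for the cytochromes c (−0.19) and highest for the BH3-only genes (0.13). For the BH3-only genes and for all members every KO array lies below every WT array, with no test.

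Over the members as a whole, 22 of 31 tested genes were lower and 9 higher in KO (71.0% lower, against 44.1% of all genes tested), with a median of −0.03 against 0.01. Over probe sets rather than genes, 35 of 60 were lower. The median ran from −0.06 to −0.01 over 14 alternatives and was −0.06 without WT replicate 1. By array, the mean deviation of the 31 genes was 0.04, 0.01 and 0.02 in WT and −0.01, −0.01 and −0.06 in KO. Every KO array lay below every WT array, with no test. KO replicate 3 was the lowest array, and the 2 other KO arrays lay within 0.02 of WT replicate 2. The class medians of the pro-death BH3-only genes (−0.09) and of the IAPs with their antagonist (−0.06) had the same sign. The IAPs have a role opposite to that of BH3-only proteins, while their antagonist Diablo does not. Of 17 genes with several tested probe sets, the probe sets shared a sign in 8 and were split in 9.

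The lowest and the highest array of a member was often WT replicate 1 or 2, as it was over all tested probe sets. WT replicate 1 gave the lowest value at 17 of the 60 probe sets (28.3%, against 32.7% of all tested probe sets) and the highest at 15 (25%, against 18.5%). WT replicate 2 gave the lowest at 10 (16.7%, against 22.3%) and the highest at 17 (28.3%, against 23.6%). KO replicates 2 and 3 each gave the lowest value at 12 (20%, against 11.2% and 12.3%).

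Against the spread of all tested probe sets of like signal level, 2 of the 60 member probe sets lay outside the middle 95%, Bik 1420362_a_at (limits of −0.24 and 0.25) and Pmaip1 (limits of −0.22 and 0.25). Both are BH3-only genes and both were lower in KO. The band leaves out 5% of all tested probe sets by its construction, so the share of members outside it is not above the background.

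**Figure D4:**
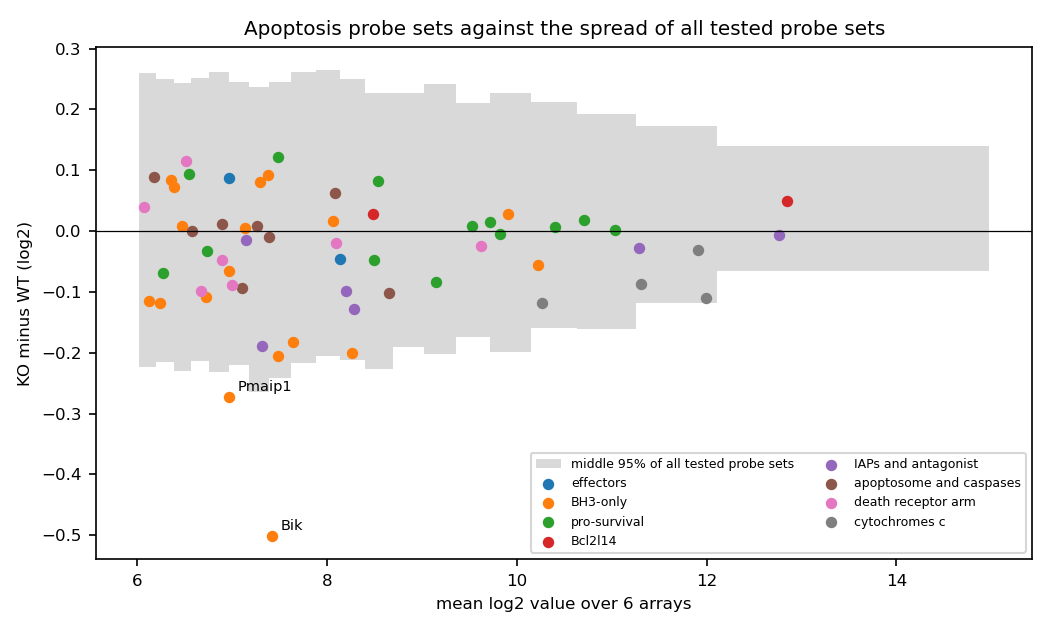
KO minus WT difference in log2 (vertical axis) against the mean log2 value over 6 arrays (horizontal axis) for the 60 tested apoptosis probe sets, coloured by class. The grey band holds the middle 95% of all 27022 tested probe sets in 20 groups of rising level, and Bik (−0.50) and Pmaip1 (−0.27) lie below it.

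The 26 member probe sets under the filter were low in signal, and how far they lie above background is unknown. Their differences ran from −0.28 (Xiap) to 0.20 (Bcl2l2), 15 lower and 11 higher in KO. Without the filter 0 of them was called (limma, lowest adjusted p = 0.936), against 0.0311% of all 45037 probe sets, and 1 of 26 had an unadjusted p under 0.05, against 4.81%.

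Other genes of the pathway, 71 of them listed apart from the members, gave no call either. Of these 63 had a probe set, and 54 genes with 93 probe sets were tested. None was called (limma, 0 of 93, 1 at an unadjusted p under 0.05), and 20 genes were lower and 34 higher in KO, with a median of 0.01, the same as over all genes. Dap, a mediator of death under interferon gamma, had the smallest p (0.18 ± 0.07, limma adjusted p = 0.957), and its other tested probe set differed by 0.07. Casp1, the inflammatory caspase, stood at 0.25 ± 0.13 and Cyld, a deubiquitinase that restrains NF-kB signalling, at −0.14 ± 0.06 at 1429618_at. The other tested Cyld probe sets differed by 0.07, 0.06 and −0.02, so the gene was split in sign. Bag6, a chaperone that male germ cells need, stood at 0.10 ± 0.05, Vdac2, the mitochondrial channel that binds BAK, at 0.12 ± 0.06, and Dedd, which encodes a nuclear protein with a death effector domain, at 0.13 ± 0.07. The limma adjusted p of these 5 was 0.982 or more.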

How the data were processed

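Per the labels' protocols, whole testes were frozen, and their total RNA (integrity numbers of 9.8 to 10) was turned into biotinylated cRNA. The authors deposited normalized log2 values of 45101 probe sets on 6 arrays. The submitters' processing notes name GCOS 1.4. The sources used here do not give how background, probe summary and normalization were handled. Values from 2.61 to 15.00, with array medians of 6.62 to 6.65, set the scale as log2. If arrays were made equal, a shift shared by all transcripts cannot be seen. The number of arrays limits the precision.

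After 64 control probe sets were dropped, the upper 60% of the others by mean over all 6 arrays were tested with limma 3.58.1 (R 4.3.3; lmFit, eBayes with an intensity trend, two-sided, Benjamini-Hochberg over 27022 probe sets). Of the probe sets, 34945 name 1 gene, 932 several and 9160 none in the platform annotation. Those with several genes or none were filtered, tested and adjusted with the rest. They were left out only of the members, the other pathway genes, the markers and the counts by gene. Each gene of a class median was taken at its tested probe set with the highest mean. Levels were not compared between probe sets. The pipeline was tested on simulated data.

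All members are named. Values of every array are given for the 8 probe sets with the smallest p and for 14 chosen genes (13 of them measured), and for a few others, and of the other pathway genes up to 6 with the smallest p are named. Members, classes and lists were chosen with earlier results of these data known. Promoter windows came from RefSeq (GRCm38.p6), in which 32 of the 35 members matched. Alternatives covered normalization, the level filter, the replicate block, variance moderation, array weights, the choice of probe set and leaving out arrays.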

Additional observations from a re-analysis of the deposited data

How the results depend on the processing

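The counts of 0 called among the members and among the other pathway genes held under all 15 alternatives. Array weights came closest, with a lowest limma adjusted p of 0.132 among members and 0.243 among the other pathway genes. Over all probe sets the count of 11 was 7 with the upper 40% of probe sets kept (fewer were tested), 46 with array weights, and 2 to 12 when arrays were left out, with 2 without KO replicate 3 or without WT replicates 1 and 2 together, 4 without WT replicate 3 and 6 without KO replicate 1. The cause was not tested. With the replicate number as a block 9 were called and 0 among the members (lowest adjusted p 0.475). The numbers are not said to pair the mice. Deviations of same-numbered arrays correlated at 0.22, −0.02 and 0.10, and WT replicate 2 correlated best with KO replicate 3 (0.25).

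Of 126 class medians under alternatives 3 moved by more than the spread within a genotype. Without WT replicate 1 that of the pro-survival genes was −0.085 (−0.085 to 0.020 over arrays left out) and that of all members −0.056 (−0.056 to −0.013), and that of the BH3-only genes was −0.023 with the mean over a gene's probe sets. Of 694 member differences under alternatives 76 changed sign, all without a call, and 29 of the 60 probe sets kept their sign throughout. No detection calls were used, so how far a probe set lies above background is unknown, and 19 of the 60 tested probe sets had a mean under 7.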
